A study of Mus musculus with 2 samples.

Results

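The Dlx, Msx, Barx1 and Lhx8 genes were examined in the cervical loop (CL) of the mouse lower incisor, in 1 column of bead array values for Med1 KO and 1 for WT. The members were all probes that the platform annotation assigns to Dlx1, Dlx2, Dlx3, Dlx4, Dlx5, Dlx6, Msx1, Msx2, Barx1 or Lhx8. There were 11 such probes of 25697, for 9 of the 10 genes among 16593 named genes, and Dlx6 has no probe in that annotation and was not analysed here. The KO mice were homozygous for a floxed Med1 gene and carried Cre under the keratin 14 promoter (MED1 fl/fl K14Cre), and the mice labelled WT had the floxed gene without Cre (MED1 fl/fl). Both were C57BL/6 mice of 10 weeks, and dissected dental tissue of 3 mice was combined for each sample. Cre driven by keratin 14 acts in epithelia, so mesenchymal cells of the same dissection were not targeted. The design text and the study's methods give n = 3 for each genotype, but the files hold 1 column of values for each, and the sources used here do not say whether a column is a single array or a mean of several. Each column is called an array below. No value below therefore has an error between animals, and no test between the genotypes could be made.

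Dlx and Msx proteins are homeodomain transcription factors that pattern the branchial arches and the teeth of the mouse. The Dlx genes lie as neighbouring pairs, Dlx1 with Dlx2, Dlx3 with Dlx4 and Dlx5 with Dlx6, and their nested expression in neural crest mesenchyme sets upper against lower jaw. Msx1 and Msx2 respond to BMP signals in both the epithelium and the mesenchyme of the tooth. Barx1 is known for the mesenchyme of the presumptive molars and Lhx8, a LIM homeodomain gene, for the oral mesenchyme from which teeth form.

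The start-site regions of 4 genes are shown because they include the members with the highest ratios in KO (Lhx8, Msx2 and Msx1) and Dlx1, the lower of the clearly detected Dlx pair Dlx1 and Dlx2. Each runs 5′ to 3′ on the strand of the gene, from 250 bases before to 50 bases after the start site, and comes from RefSeq on build GRCm38.p6. Capitals mark TAAT read on either strand, the core of the sequence that homeodomain proteins bind.
Dlx1, chr2:71529195-71529494, plus strand: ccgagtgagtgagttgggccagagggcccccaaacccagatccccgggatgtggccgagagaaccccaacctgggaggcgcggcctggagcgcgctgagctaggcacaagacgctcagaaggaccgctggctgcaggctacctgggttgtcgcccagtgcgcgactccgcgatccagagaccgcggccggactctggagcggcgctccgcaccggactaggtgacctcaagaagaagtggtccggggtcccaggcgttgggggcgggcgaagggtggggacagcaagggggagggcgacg
Msx1, chr5:37824536-37824835, minus strand: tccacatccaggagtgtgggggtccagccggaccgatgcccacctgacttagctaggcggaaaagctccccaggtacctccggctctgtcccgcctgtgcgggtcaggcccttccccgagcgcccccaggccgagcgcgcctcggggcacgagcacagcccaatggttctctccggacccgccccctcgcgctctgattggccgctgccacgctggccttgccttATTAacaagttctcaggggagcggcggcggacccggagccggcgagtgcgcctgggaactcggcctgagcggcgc
Msx2, chr13:53472731-53473030, minus strand: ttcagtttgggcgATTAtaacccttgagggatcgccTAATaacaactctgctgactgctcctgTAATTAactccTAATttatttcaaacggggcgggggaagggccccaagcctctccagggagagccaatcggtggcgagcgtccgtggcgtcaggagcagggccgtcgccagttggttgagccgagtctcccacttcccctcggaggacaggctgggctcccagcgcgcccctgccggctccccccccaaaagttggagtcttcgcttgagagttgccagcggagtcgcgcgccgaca
Lhx8, chr3:154330511-154330810, minus strand: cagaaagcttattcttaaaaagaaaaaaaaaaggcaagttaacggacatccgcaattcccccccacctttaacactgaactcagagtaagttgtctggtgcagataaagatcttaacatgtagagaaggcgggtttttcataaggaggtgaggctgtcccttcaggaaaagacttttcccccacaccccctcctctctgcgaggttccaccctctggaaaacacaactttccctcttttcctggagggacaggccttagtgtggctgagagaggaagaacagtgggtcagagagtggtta

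Of the 10 genes, 6 matched an entry of the promoter table, which were these 4 with Dlx2 and Barx1. TAAT occurred at 5 places in the Msx2 window, the first at -237 and the last at -176 relative to the start site, and the 2 at -187 and -185 overlap as the palindrome TAATTA. The palindrome is in 5.29% of the 32851 windows of this length in the table, and TAAT on either strand in 58% of them. Msx1 held TAAT at 1 place, at -25 relative to its start site, and the windows of Dlx1, Dlx2, Barx1 and Lhx8 held none. CCAAT, read on both strands, occurred at 2 places in Msx1 and at 1 place each in Msx2 and Dlx2, against 37.4% of all windows with at least 1. Dlx2 also held CACGTG at 2 places, a sequence found in 7.15% of all windows. TATAAA, read on both strands and present in 13.6% of all windows, was in none of the 6. The GC content of the windows was 84.7% for Barx1, 70% for Msx1, 69.3% for Dlx1, 66.3% for Dlx2, 61% for Msx2 and 47% for Lhx8, beside a median of 52.7% over the table. These matches describe the letters of the windows and were not tied to the array values.

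The platform was the MouseRef-8 v2 bead array of Illumina. The deposited intensity of a probe is a linear brightness in arbitrary units before any background subtraction, and the detection p-value deposited with it ranks it against control beads that match no transcript. A probe was taken as detected at a detection p under 0.01. The median intensity over all probes was 115.7 in KO and 112.4 in WT, and 11742 probes were detected on at least 1 array. These stood for 8378 named genes, each represented by its brightest detected probe. Of the 11 member probes, 8 were detected on at least 1 array and 7 on both. Ratios are log2 differences, KO minus WT, after background correction, an offset of 16 and quantile normalization. Between probes of 1 gene the ratios differed by a median of 0.20 log2 units in 2007 genes, with a 95th percentile of 0.71 and an SD per probe of 0.25, a guide to measurement error that holds no variation between animals. Med1 itself read 172.9 in KO and 245.9 in WT on its 1 detected probe, a log2 ratio of -0.80, and its other 3 probes were not detected. Whether that probe reads the deleted part of Med1 was not determined, so it is a limited check of the labels.

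**Figure D1:**
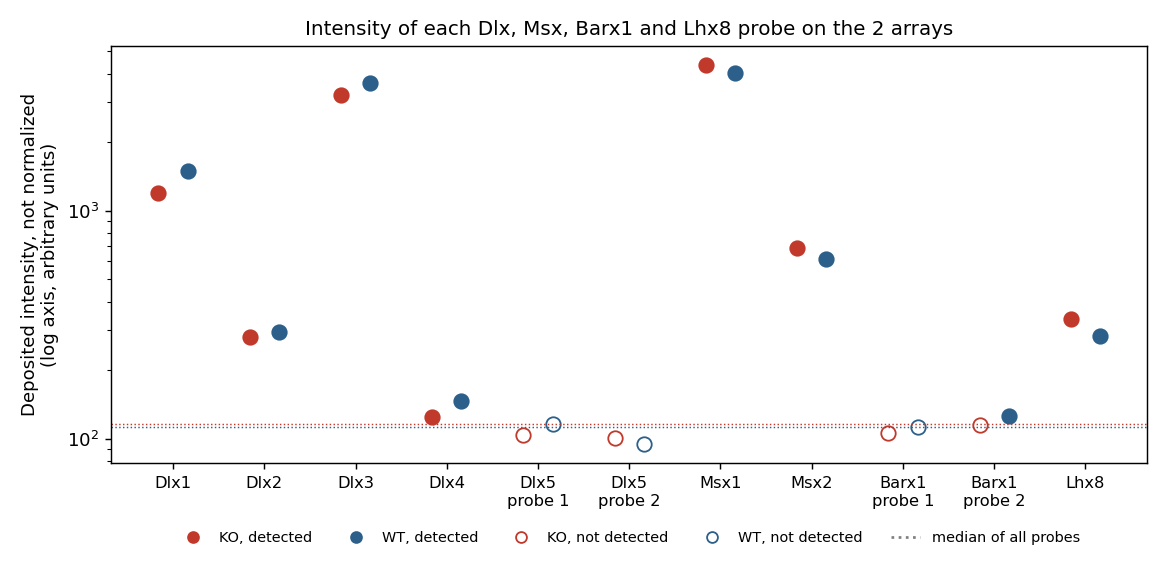
Deposited intensity (log axis, arbitrary units) of the 11 probes, with 1 point per array, KO on the left and WT on the right of each pair, and open circles for probes not detected. Both probes of Dlx5 and 1 of Barx1 are open on both arrays, near the dotted medians of 115.7 in KO and 112.4 in WT, while Msx1 reads 4364.4 in KO and 4023 in WT.

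Msx1, Msx2 and Lhx8 had higher values on the KO array, at 1.23-fold, 1.28-fold and 1.36-fold. Dlx2 and Dlx3 were close to equal on both arrays, Dlx1 was 1.12-fold lower in KO, and the dim probe of Dlx4 was 1.62-fold lower. Of the 8 detected genes, 5 had a ratio above 0 and 3 below, and the ratio was below 0 in 49.7% of all 8378 genes. The median over the 8 genes was 0.02 log2 units, and over all genes it was 0.00. No member was 1.5-fold or more higher in KO, a limit passed by 3.02% of all genes. Dlx4 alone was 1.5-fold or more lower, a limit passed by 2.92% of all genes, and no member reached 2-fold. Over 8 genes these shares are too coarse to set the family apart from the array as a whole. The 1.5-fold limit is the one the study's methods name.

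Dlx1 and Dlx2 are expressed together in the jaw mesenchyme, and mice without both lack upper molars. Dlx1 read 1193.9 in KO and 1498.2 in WT, and 1278 in KO and 1418.8 in WT in the values that the authors normalized between arrays. The KO value was the lower in both sets, and after background correction the log2 values were 10.22 in KO and 10.38 in WT, a ratio of -0.16. Of the 8378 genes, 2128, or 25.4%, had a ratio this low or lower, and it is smaller than the probe SD of 0.25. Dlx2 read 279.4 in KO and 294.4 in WT before normalization, and 287.7 in KO and 286 in WT in the authors' normalized values. Its order changed with normalization, and its ratio was 0.01, with log2 values of 7.65 in KO and 7.64 in WT. The difference between the ratios of Dlx2 and Dlx1 was 0.17 log2 units, inside the spread between probes of a gene. The antisense gene Dlx1as overlaps Dlx1, and its probe was not detected, with 114.4 in KO and 109.4 in WT. The sources used here do not say whether the labelling kept the strand.

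Dlx3 is needed for enamel, hair and bone, and in humans its mutation causes tricho-dento-osseous syndrome, in which hair, teeth and bone are all affected. Its probe read 3235.8 in KO and 3630.1 in WT before normalization, and 3464.7 in KO and 3418.6 in WT in the authors' normalized values. The ratio was 0.02 with quantile normalization and -0.15 with median scaling, a setting in which the median of all genes lay at -0.13. Set against that median, Dlx3 was at -0.02 with median scaling and 0.02 in the main values, so the arrays showed no difference in Dlx3 that exceeds the choice of scaling. Dlx4, its neighbour, was dim. It read 124.6 in KO, with a detection p of 0.00752 just inside the limit, and 146.9 in WT, with a detection p of 0. The log2 values were 5.22 in KO and 5.91 in WT, a ratio of -0.70, and 145 of the 8378 genes, or 1.73%, had a ratio this low or lower. In the authors' normalized values Dlx4 was at 123.4 in KO and 146.5 in WT, a log2 ratio of -0.25. The size of the Dlx4 difference thus depends on the background correction, and both readings lie close to the level of undetected probes.

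Dlx5, which with Dlx6 gives the mouse lower jaw its identity, was not detected on either array. Its first probe read 104.3 in KO and 115.9 in WT, with detection p-values of 0.415 in KO and 0.0226 in WT. The second, designed on another RefSeq transcript of the gene, read 100.3 in KO and 94.4 in WT. One probe was lower and the other higher in KO, and no ratio is drawn from readings at this level. Signal over background sets this limit, so a low level of Dlx5 RNA in the CL may be missed.

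Msx1, without which mouse teeth arrest at the bud stage, read 4364.4 in KO and 4023 in WT. The authors' normalized values were 4656.5 in KO and 3789.7 in WT, so KO was the higher in both sets. The log2 values were 12.16 in KO and 11.85 in WT, a ratio of 0.30, and 1059 genes, or 12.6%, had a ratio this high or higher. Msx2, needed in the mouse for normal enamel and for keeping the hair shaft, read 684.1 in KO and 612.3 in WT. Its normalized values from the authors were 723.5 in KO and 585 in WT, and its log2 values 9.32 in KO and 8.96 in WT. The ratio was 0.35, and 808 genes, or 9.64%, were this high or higher. The ratios of Msx2 and Msx1 lay within 0.05 log2 units of each other. Both ratios exceed the probe SD of 0.25, but so do 33.8% of all genes in either direction, and each Msx gene has only 1 probe. With median scaling the ratios were smaller, at 0.14 for Msx1 and 0.20 for Msx2, and 0.27 and 0.33 above the median of all genes in that setting. The third mouse Msx gene, Msx3, was not detected, at 101.1 in KO and 99 in WT.

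Lhx8 acts with Lhx6 in the oral mesenchyme of the mouse. It read 335.5 in KO and 283.8 in WT, and 346.1 in KO and 276.9 in WT after the authors' normalization. The log2 values were 8.02 in KO and 7.58 in WT, and the ratio of 0.45 was the highest of the 8 detected members, with 499 genes, or 5.96%, this high or higher. Lhx6 was not detected, at 105.6 in KO and 104.1 in WT. Barx1 was detected in WT only, where its brighter probe read 125.9 with a detection p of 0.00627, against 115.1 in KO with a detection p of 0.0514. Set against the lowest value among probes detected on the KO array, it was at least 1.14-fold lower in KO, and in the authors' normalized values at least 1.04-fold lower. The measured ratio was -0.55. Its other probe read 106 in KO and 113 in WT and was not detected. Barx1 entered the count only through WT, where it was the higher, so its direction is no support for a difference, and with Barx1 at its bound the median over the 8 genes stayed at 0.02.

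**Figure D2:**
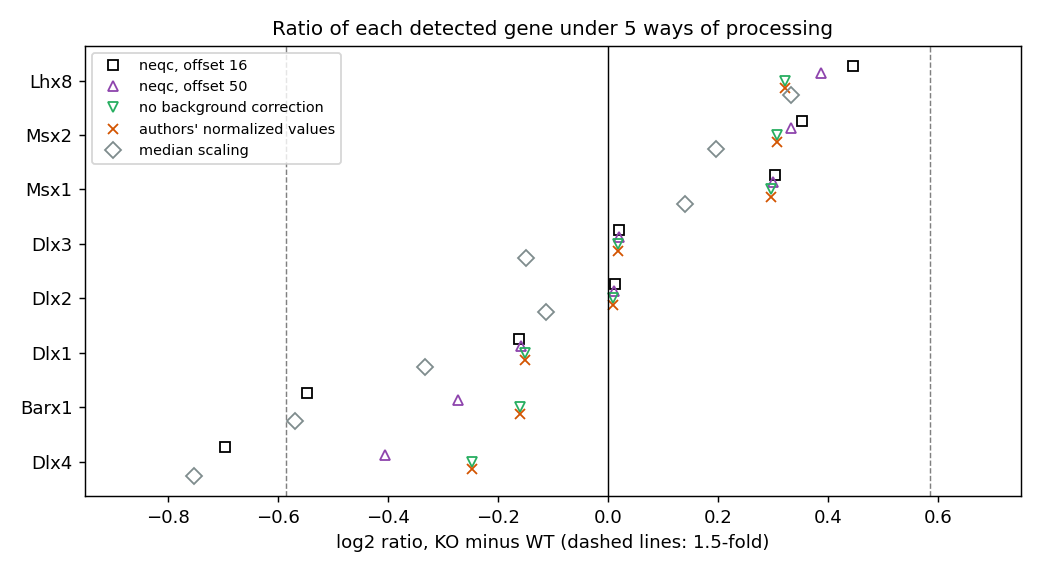
Log2 ratio, KO minus WT, of the 8 detected genes under 5 ways of processing, 1 marker for each, with dashed lines at 1.5-fold. Lhx8, Msx2 and Msx1 lie above 0 and Dlx1, Barx1 and Dlx4 below 0 in all 5, whereas Dlx2 and Dlx3 are near 0 in 4 of them and below 0 with median scaling, and Dlx4 ranges between -0.75 and -0.25.

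Differences between the ratios of members were taken over the 7 genes detected on both arrays, which leaves out Barx1. The limit of 0.71 log2 units is the 95th percentile between probes of 1 gene. How many pairs of other genes differ by more was not computed, so a count of pairs does not set the members apart. Of the 21 pairs of these 7 genes, the ratios of 4 differed by more, and all 4 involved the dim Dlx4. In 3 of them the difference also exceeded 0.40 in the authors' normalized values, which is that percentile there, and these set Lhx8, Msx2 or Msx1 against Dlx4. The widest was Lhx8 minus Dlx4, at 1.14 in the main values and 0.57 in the authors' values. In the authors' values, Lhx8, Msx2 and Msx1 minus Dlx1 also exceeded 0.40, at 0.47, 0.46 and 0.45. In the main values these differences lay inside 0.71. Among brighter probes, Msx1 minus Dlx1 was 0.46 in the main values and 0.45 in the authors' values, and between 0.45 and 0.47 in all 5 settings. The order of the 2 ratios was kept in all 5 settings for 20 of the 21 pairs, the exception being Dlx3 and Dlx2. The settings are not independent checks, since all rework the same KO and WT columns. Values without background correction were also nearly equal to the authors' values. Neighbours in the order of ratios all differed by less than 0.71. The widest were Dlx1 over Dlx4, at 0.54, a difference of 0.10 in the authors' values, and Msx1 over Dlx3, at 0.28.

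Other transcription factors of jaw and tooth patterning were spread around 0 as well. Of 28 listed, 20 were found on the array and 10 were detected, 5 above and 5 below 0, with a median of 0.01. None was 1.5-fold higher or lower. Meis1, a homeodomain partner of Hox and Pbx proteins, had a ratio of -0.50, Barx2, the paralog of Barx1, -0.49, and Gsc, a homeobox gene of the lower jaw, -0.28. Meis1 read 148.7 in KO and 177.9 in WT, and Barx2 140.3 in KO and 163.1 in WT, so both were dim. In the authors' normalized values their ratios were -0.23 for Meis1 and -0.21 for Barx2. Isl1, a LIM homeodomain gene of the incisor epithelium in the mouse, had a ratio of 0.18.

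Among the signals that induce Dlx and Msx genes, and their receptors, 15 of 21 listed genes were detected, 8 above 0 and 7 below, with a median of 0.07. The negative ratios were the wider ones, and Fgf9 and Shh were 1.5-fold or more lower in KO. Fgf9, an FGF ligand of the dental epithelium, read 131.1 in KO and 160.9 in WT, a ratio of -0.74 that was -0.29, under 1.5-fold, in the authors' normalized values. Shh, the hedgehog ligand of the dental epithelium, read 2927.1 in KO and 5123.9 in WT, a ratio of -0.67, or -0.65 in the authors' normalized values, and its less bright probe gave -0.90. Fgf10, made by the mesenchyme, had ratios of -0.53 and -0.54 on its 2 detected probes, and Fgfr2, its receptor, -0.46. Bmp4, the ligand best known for inducing Msx1 and Msx2, read 2075.3 in KO and 2134.8 in WT, a ratio of 0.14, and Bmp7 was at 0.11. Bmp2 was detected in KO only, at 125.1 in KO and 120.6 in WT. The receptor gene Bmpr1a was at 0.29, with another probe at -0.32. Edn1, the endothelin that acts upstream of Dlx5 and Dlx6 in the lower jaw of the embryo, was at -0.46, and Ece1, which activates endothelin, at -0.42. Edn1 was dim, at 129.9 in KO and 145.4 in WT, and its ratio was -0.17 in the authors' normalized values.

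Binding partners and LIM cofactors stayed near 0, with 13 of 14 detected, 7 above and 6 below, and a median of 0.01. None reached 1.5-fold. Maged1, a protein that binds Dlx and Msx proteins, was at 0.02, and Ldb1, which joins LIM homeodomain proteins such as Lhx8 into complexes, at -0.12. Lmo4, a LIM-only protein that competes for Ldb1, read 2240.5 in KO and 3037.6 in WT, a ratio of -0.28. Lmo2 was at -0.13, and Lmo3 was detected in WT only, at 119.9 in KO and 127.9 in WT. Tle3, a corepressor of the Groucho family, was at 0.27.

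Of 20 genes described downstream of Dlx or Msx proteins, 18 were found on the array and 12 were detected, 5 above 0, 6 below and Amelx at 0, with a median of -0.04. None was 1.5-fold higher or lower. The enamel protease gene Mmp20 was at 0.41 and Klk4, the later enamel protease, at -0.32. Klk4 was dim, at 124.9 in KO and 132.6 in WT. In the authors' normalized values the ratios were 0.28 for Mmp20 and -0.11 for Klk4. Amelx, the main enamel matrix gene, read 22412.7 in KO and 22621.8 in WT near the top of both arrays, where quantile normalization gave it the same value. Gsc, a target of Dlx5 and Dlx6 in the arch, was at -0.28, and Ibsp, a bone matrix gene, at -0.28, with another probe at -0.04. Gad1 was detected in WT only, at 120.6 in KO and 128.2 in WT. Hoxc13, Gata3 and Foxn1, transcription factors of the hair follicle, were not detected on either array, nor were Hand2, Gbx2 and Gad2.

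**Figure D3:**
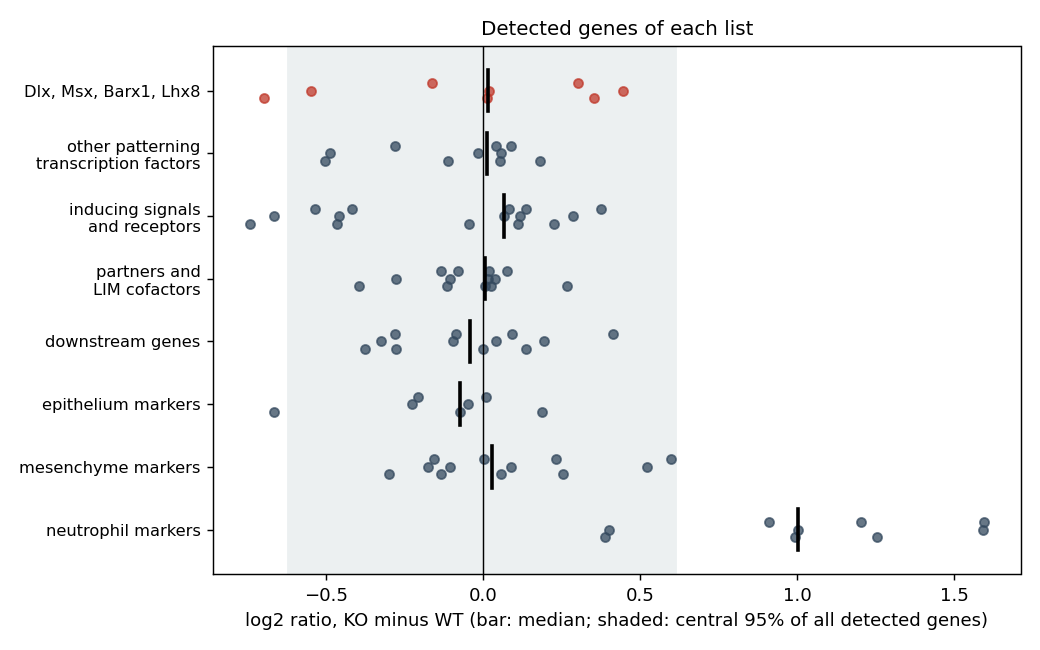
Log2 ratio, KO minus WT, of every detected gene of the members and of 7 lists, 1 point per gene, with a bar at each median and shading over the central 95% of all 8378 genes, between -0.62 and 0.61. Dlx4, at -0.70, is the only member outside the shading, the medians of the members and the 4 related lists lie between -0.04 and 0.07, and the neutrophil markers lie to the right at a median of 1.0.

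Markers of the dental epithelium and mesenchyme had list medians close to 0. Of 10 dental epithelium markers, 7 were found and detected, 5 below 0 and 2 above, with a median of -0.07, and their summed normalized intensity from the authors was 28205.2 in KO and 31084.3 in WT. All 12 mesenchyme and fibroblast markers were detected, 7 above 0 and 5 below, with a median of 0.03 and sums of 31075.7 in KO and 28985 in WT. Vim, at 0.60, and Dcn, at 0.52, were the highest of these and Thy1, at -0.30, the lowest. The sum over mesenchyme markers was thus higher in KO, but 5 of the 12 were below 0 and their median ratio was 0.03. Msx1, Msx2 and Lhx8 were higher in KO too, and the part of tissue makeup in those ratios was not tested. Epithelium markers were led by Shh at -0.67, with Krt5 at -0.23 and Krt17 at -0.21, while Cldn1 went the other way at 0.19. Krt14, whose promoter drives Cre, was at 0.01. In bulk tissue, fewer cells of a type and less RNA per cell cannot be told apart.

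Markers of further cell types were examined in the same way. All 9 detected neutrophil markers of 10 were above 0, with a median of 1.0 and sums of 6624 in KO and 3561.8 in WT. The highest were Retnlg at 1.60 and Lcn2 at 1.59. Elane was detected in KO only, at 134.4 in KO and 120.9 in WT, so its direction came with the filter. The other 8 were detected on both arrays, with a median of 1.10. Of 8 detected skeletal muscle markers, 6 were above 0, with a median of 0.26 and sums of 2017.9 in KO and 1787.7 in WT. Mb was the widest at 0.77, with another probe at 0.33. Actn3 went the other way at -0.60, or -0.22 in the authors' normalized values. Ckm, counted above 0, was detected in KO only. Of 7 endothelial markers, 5 were below 0, with a median of -0.15 and sums of 2749.5 in KO and 3409 in WT. Vwf, at -0.78, was the only one 1.5-fold or more lower. Tek was at -0.47 and Pecam1 at -0.26, with another probe of Pecam1 at 0.00. Kdr, at 0.22, was detected in KO only, at 124.8 in KO and 116.9 in WT, and Cdh5 was at 0.00. The 2 detected Schwann cell and neural markers, Pmp22 and Mbp, were at -0.59 and -0.46, with other probes at -0.14 and -0.04. Ameloblast markers were all detected, 7 of 7, with a median of 0, and Fam20a and Sp6 were the highest at 0.65 and 0.60, with other probes at 0.04 for Fam20a and at 0.21 and 0.08 for Sp6. Of 7 odontoblast and pulp markers 5 were detected, with a median of 0.14, and Dspp and Dmp1, which define mature odontoblasts and osteocytes, were not. Osteoblast markers had a median of 0.07 over 4 detected genes. Of 11 epidermis and hair markers on the array, 7 were not detected, among them Krt1, Krt71, Krt31 and Krt35, and the other 4 had a median of 0.10, with Krt27 at 0.72.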

How the data were processed

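The series holds 1 KO and 1 WT sample, and the 2 samples were grouped by their titles. The intensity values deposited by the authors, read in GenomeStudio, were neither background-subtracted nor normalized between arrays, and each is followed by a detection p-value column that the authors deposited without a sample name, taken to belong to the intensity column before it. A second deposited table holds intensity normalized between arrays by the authors. It was used as an alternative and for summed marker levels.

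Background correction (its level read off the detection p-values), an offset of 16, quantile normalization and log2 were run in limma 3.58.1 under R 4.3.3, as its neqc step does. The correction acts most on dim probes. A probe needed a detection p below 0.01 on 1 array or both, and the brightest detected probe stood for its gene. A probe detected on 1 array was bounded by the lowest detected value on the other, which was 5.15 in KO and 5.26 in WT on the log2 scale. Of 25697 probes, 23978 had 1 gene symbol, and the other 1719, with none or more than 1, were not assigned to a gene. Symbols were updated through a RefSeq table of GRCm38.p6, and 150 of 174 list entries were found. The values have no genome build, and coordinates are given only for sequences from the RefSeq promoter table. The steps were tested on simulated arrays. With 1 sample per group no p-value was computed between the genotypes, and genes were counted by size, at 1.5-fold. Precision is limited by there being 1 column for each genotype.

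The members and the 14 gene lists were chosen with earlier results of these data known. All members are named, with Med1 and the nearest genes of the Dlx pairs. Of each list, up to 4 detected genes with the largest ratios were to be named, but in some lists such genes were skipped. Msx3, Lhx6 and the other list members named were chosen after their values were seen. The alternatives were no background correction, an offset of 50, median scaling, the authors' normalized values, other detection rules, the mean over probes and a 2-fold limit.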

Additional observations from a re-analysis of the deposited data

How the results depend on the processing

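The ratios of Msx1, Msx2, Lhx8, Dlx1, Dlx4 and Barx1 kept their sign in every setting run that gave them a value. Every setting reworks the same KO and WT columns, so a kept sign is no sign of reproducibility between animals. Barx1 was detected in WT only, where it was the higher, so its sign is no support for a difference. The ratio of Dlx4 was -0.70 in the main values and moved to -0.25 without background correction, to -0.25 in the authors' normalized values and to -0.41 with an offset of 50. That of Barx1, -0.55 in the main values, moved to -0.16, -0.16 and -0.27 in the same settings. The number of members at 1.5-fold or more, 1 in the main values, was 0 in each of these 3 settings and 0 at a 2-fold limit. The share of all genes at 1.5-fold or more in either direction was 5.94% in the main values, and it was 0.704% without background correction, 0.704% in the authors' values and 1.58% with an offset of 50. Dlx2 and Dlx3 changed sign with median scaling, at -0.11 and -0.15, and the median over the members became -0.13, equal to the -0.13 of all genes in that setting. Of the 14 list medians, the one over the 2 detected Schwann cell and neural markers moved most, to -0.31 with the mean over probes against -0.52 in the main values, and that of the neutrophil markers was 0.81 in the authors' values. Barx1 has no value where detection on both arrays was asked for. Signal over background limits Dlx4, Dlx5 and Barx1. No paired analysis was possible because each genotype has 1 sample.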

Other observations

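Genes next to the Dlx pairs did not share a direction. Metap1d, a methionine aminopeptidase gene beside Dlx1, read 231.5 in KO and 179.4 in WT, a log2 ratio of 0.73, against -0.16 for Dlx1 and 0.01 for Dlx2. Itga6, an integrin gene on the other side of that pair, was not detected on its probe, at 114.7 in KO and 113.7 in WT. Beside the pair of Dlx3 and Dlx4, the integrin gene Itga3 read 320.1 in KO and 374 in WT, a ratio of -0.18, and Tac4 was not detected. Beside Dlx5 and Dlx6, Sem1 was at 0.00 and Sdhaf3 at 0.08, and both were detected on both arrays, although Dlx5 was detected on neither. The order of the genes was taken from the RefSeq table of GRCm38.p6.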
